A study of Mus musculus with 24 samples.

Results

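Genes of cystine and neutral amino acid transport were followed across primary mouse neural cultures kept at low or room-air oxygen: Slc7a11, Slc3a2, Slc7a5, Slc7a3, Slc7a1, Slc38a1, Slc38a2, Slc38a4, Slc1a4 and Slc1a5. They were chosen by symbol because several of them had higher values at 3% O2 in some culture states only, so their differences between oxygen levels are described with standard errors and no p-value, and nothing is read from how many of them pass a threshold. The 10 genes were measured by 11 probe sets, of 19938 genes with a probe set of their own and 28856 probe sets in all. Slc38a1 had 2 probe sets, and the one with the higher mean is used unless stated.

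RNA came from cells isolated from the cortex or the midbrain (mesencephalon) of C57Bl/6 fetuses at embryonic day 14 and grown in expansion medium, and it was measured on 24 whole-transcript gene arrays. The 8 groups of 3 arrays combine the region (midbrain or cortex), the time after dissection (48 h or 13 d) and the oxygen level (3% O2, or 21% O2 as the control), and no genotype or drug differed between them. A state below means a region at a labelled time, such as cortex 48 h. Whether the 3 arrays of a group stand for separate cultures or litters is not given in the labels, so standard errors and p-values cover the array spread alone, and that spread may be technical. In such mixed cultures, fewer cells of a type and less RNA per cell cannot be told apart.

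Over all 28856 probe sets, Pearson correlations within groups lay between 0.988 and 0.999. Precision is limited by having 3 arrays per group. Mean profiles of states were compared over the 23410 probe sets with a symbol. That of cortex 48 h was closer to midbrain 13 d (r = 0.992) than to midbrain 48 h (r = 0.926). That of cortex 13 d was closer to midbrain 48 h (r = 0.974) than to midbrain 13 d (r = 0.953). The mean of 10 neuron markers was 11.99 to 12.09 in midbrain 48 h and 11.56 to 11.58 in cortex 13 d, but 8.47 to 8.52 in midbrain 13 d and 9.10 to 9.54 in cortex 48 h. All 10 progenitor markers were lower in midbrain 48 h than in cortex 13 d by limma's adjusted p. Cortex arrays labelled 48 h thus resembled the later midbrain time, and those labelled 13 d the earlier one, so the cortex time labels may be exchanged, which was not tested. Times are given as labelled. If the cortex labels are exchanged, each cortex state carries the other's time, and every difference between the cortex times turns its sign. A comparison of regions at the same labelled time would then set different times against each other. Midbrain 13 d makes up run 1 of the arrays (6 arrays) and all else run 2 (18 arrays), so levels in midbrain 13 d are not tested against other states, because run and state cannot be told apart there. Each difference between oxygen levels lies within 1 run.

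Slc7a11 encodes xCT, which imports cystine in exchange for glutamate and so supplies cysteine for glutathione. Slc3a2 encodes the CD98 heavy chain, the partner that brings xCT and the leucine transporter LAT1, encoded by Slc7a5, to the cell surface. Slc7a1 and Slc7a3 encode the cationic amino acid transporters CAT1 and CAT3. Slc38a1 and Slc38a2 encode sodium-coupled carriers of glutamine and alanine, Slc38a4 is a relative of them, and Slc1a4 and Slc1a5 encode the neutral amino acid exchangers ASCT1 and ASCT2. Many genes of this kind are textbook targets of ATF4, a transcription factor made when amino acids are short or cells are stressed, which binds with C/EBP proteins to a composite DNA element.

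Promoters of Slc7a11 and Slc1a4 are printed because they were the ones, among 9 RefSeq promoters of 6 of these genes (Slc7a11, Slc3a2, Slc7a1, Slc38a2, Slc38a4 and Slc1a4), that held the core letters of that composite element. No promoter was available for Slc7a3, Slc7a5, Slc38a1 and Slc1a5, so they were not searched. The window ran from 250 bases before to 50 bases after each start site, on assembly GRCm38.p6. The letters TGATGNAA were searched on both strands, and none of the matches in these genes overlapped a match of another motif searched. Capitals mark the matches, and each sequence is written 5′ to 3′ on the strand of the gene.
Slc7a11, chr3:50443614-50443763, minus strand, the 150 bases before the start: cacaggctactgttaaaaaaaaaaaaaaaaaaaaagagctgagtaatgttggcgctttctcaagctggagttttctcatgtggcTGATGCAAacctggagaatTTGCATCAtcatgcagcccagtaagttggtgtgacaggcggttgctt
Slc1a4, chr11:20332699-20332728, minus strand, 30 bases around the start: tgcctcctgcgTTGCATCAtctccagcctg
Slc7a11 held 2 matches, at -66 to -59 on the strand of the gene and at -47 to -40 on the other strand. Of 32851 mouse promoters of this length, 4.0% held at least 1 match and 0.07% at least 2. Slc1a4 held 1 match on the other strand, at -4 to 4. The hypoxia response core ACGTG, found in 19.6% of promoters, had 1 match among these genes, in Slc3a2, and the antioxidant response core TGACNNNGC, found in 12.4%, had 1 each in Slc7a1 and Slc38a2. A match is a description of the letters and not of binding.

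Slc7a11 had its high values in cortex 48 h at 3% O2, at 10.78, 10.28 and 10.41 (log2, replicates 1, 2 and 3), against 8.27, 8.12 and 8.26 at 21% O2. In midbrain 13 d it was at 8.53, 9.33 and 8.53 at 3% O2 and 8.14, 8.12 and 8.19 at 21% O2. Both pairs of groups were separate, and replicate 2 stood above the other two 3% O2 arrays in midbrain 13 d. The order was the reverse in cortex 13 d, at 7.82, 8.16 and 8.04 at 3% O2 against 8.47, 8.36 and 8.32 at 21% O2, again with no overlap. In midbrain 48 h the groups overlapped, at 7.93, 8.14 and 8.27 against 8.26, 8.12 and 8.47. The cystine transporter gene thus differed by 2.27 ± 0.17 in cortex 48 h (log2 difference, 3% minus 21% O2, ± SE, n = 3 arrays per group), which is 4.83-fold. It differed by 0.65 ± 0.17 in midbrain 13 d, by -0.17 ± 0.17 in midbrain 48 h and by -0.37 ± 0.17 in cortex 13 d. Each SE here and below comes from the fit to all 24 arrays and is the same in every state for a gene. It can therefore understate the spread where the arrays of a group scatter. Without replicate 2 at 3% O2, the midbrain 13 d difference was 0.38. The other 6 group means lay between 8.01 and 8.38, with overlapping values between neighbours in that order.

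Slc3a2, the shared heavy chain, differed by less, with little spread between arrays. Its values in cortex 48 h were 12.94, 12.91 and 12.86 at 3% O2 and 12.35, 12.33 and 12.32 at 21% O2. Midbrain 13 d gave 12.69, 12.85 and 12.69 against 12.00, 12.03 and 12.09. The gaps between these groups were wide next to the spread within them, with differences of 0.58 ± 0.06 (1.49-fold) and 0.71 ± 0.06 (1.63-fold). In midbrain 48 h (12.47, 12.46 and 12.37 against 12.32, 12.36 and 12.47) and in cortex 13 d (12.34, 12.39 and 12.30 against 12.39, 12.24 and 12.22) the oxygen groups overlapped.

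Slc7a5, the LAT1 light chain that carries leucine and other large neutral amino acids, followed its partner. Midbrain 13 d gave 12.38, 12.74 and 12.39 at 3% O2 against 11.54, 11.48 and 11.61 at 21% O2. The values in cortex 48 h were 12.83, 12.68 and 12.61 against 12.15, 11.93 and 11.97. Neither pair overlapped, and the differences were 0.96 ± 0.08 (1.94-fold) and 0.69 ± 0.08 (1.62-fold). A smaller separation was seen in midbrain 48 h, at 12.16, 12.02 and 11.95 against 11.80, 11.75 and 11.86, or 0.24 ± 0.08. In cortex 13 d the values were 12.16, 12.12 and 12.10 against 12.20, 12.08 and 12.07, a difference of 0.01 ± 0.08.

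**Figure D1:**
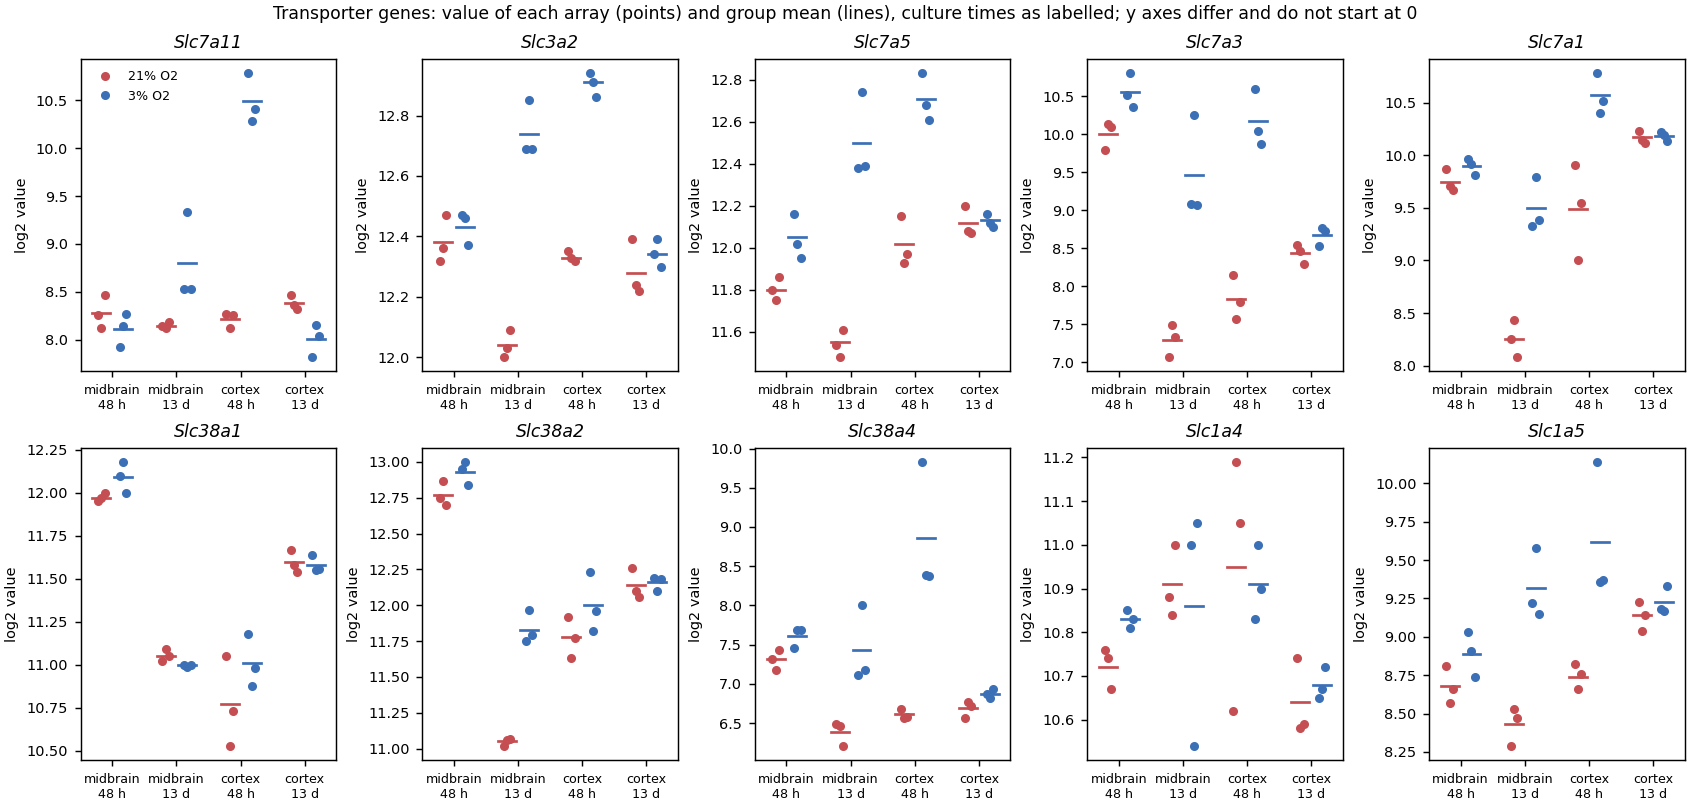
Log2 value of each array (points, 3 per group) and group mean (lines) of the 10 genes in the 4 states, at 21% O2 (red) and 3% O2 (blue), with the y axis set for each gene. The blue points lie above the red ones in midbrain 13 d for 8 genes and in cortex 48 h for 7. Of all tested probe sets, 18.5% and 11.4% were separated in this way, and the genes were chosen on this contrast. Slc38a1 and Slc38a2 were highest in midbrain 48 h at both oxygen levels, and Slc7a3 had its highest mean there at 3% O2.

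The cationic transporter genes gave wide separations in the same states. Slc7a3, encoding CAT3, was at 10.60, 10.04 and 9.87 in cortex 48 h at 3% O2 against 8.15, 7.57 and 7.79 at 21% O2. In midbrain 13 d it was at 9.08, 10.25 and 9.07 against 7.07, 7.49 and 7.33. All 3% O2 arrays lay above all 21% O2 arrays in both states, by 2.34 ± 0.25 (5.05-fold) and 2.17 ± 0.25 (4.50-fold). Midbrain 48 h was high at either oxygen level, with 10.51, 10.80 and 10.36 at 3% O2 and 9.79, 10.13 and 10.10 at 21% O2, a difference of 0.55 ± 0.25. Cortex 13 d gave 8.53, 8.77 and 8.73 against 8.55, 8.47 and 8.29, a difference of 0.24 ± 0.25 with overlap.

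Slc7a1, encoding CAT1, gave 9.33, 9.79 and 9.38 at 3% O2 in midbrain 13 d against 8.25, 8.43 and 8.08 at 21% O2. In cortex 48 h it gave 10.78, 10.40 and 10.52 against 9.91, 9.00 and 9.55. The differences were 1.25 ± 0.16 (2.38-fold) and 1.08 ± 0.16 (2.11-fold), although the 21% O2 arrays of cortex 48 h were spread over nearly as wide a range as that difference. Values in midbrain 48 h (9.96, 9.92 and 9.81 against 9.87, 9.71 and 9.67) and cortex 13 d (10.22, 10.19 and 10.14 against 10.23, 10.15 and 10.12) overlapped. The estimates there were 0.15 ± 0.16 and 0.02 ± 0.16.

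The 3 Slc38 genes did not share a pattern. Slc38a2, encoding the glutamine carrier SNAT2, differed between oxygen levels mainly in midbrain 13 d, at 11.75, 11.97 and 11.79 against 11.02, 11.06 and 11.07, or 0.79 ± 0.09 (1.72-fold). In cortex 48 h its groups overlapped, at 12.23, 11.82 and 11.96 against 11.92, 11.63 and 11.77, or 0.22 ± 0.09, and 0.11 without replicate 1 at 3% O2. In midbrain 48 h the values were 12.95, 13.00 and 12.84 against 12.75, 12.87 and 12.70, and in cortex 13 d 12.19, 12.10 and 12.18 against 12.26, 12.10 and 12.06.

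Slc38a1, encoding SNAT1, had small differences over all arrays. Its values in midbrain 13 d were 11.00, 10.99 and 11.00 at 3% O2 and 11.02, 11.09 and 11.05 at 21% O2, which did not overlap but lay only 0.06 apart (SE 0.09). In cortex 48 h they were 11.18, 10.88 and 10.98 against 11.05, 10.53 and 10.73, a difference of 0.24 ± 0.09 with overlap. That value was 0.38 without replicate 1 at 21% O2 and 0.16 without replicate 1 at 3% O2. Its other probe set gave overlapping groups in midbrain 13 d (-0.03 ± 0.14) and 0.33 ± 0.14 in cortex 48 h.

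Slc38a4, encoding a carrier of neutral and cationic amino acids, had the lowest mean over all arrays of the 10 genes, 7.22, at percentile 41.9 among genes. Its high values were in cortex 48 h at 3% O2. They were 9.83, 8.39 and 8.37 against 6.68, 6.57 and 6.58 at 21% O2, a difference of 2.25 ± 0.27 (4.76-fold). Replicate 1 stood apart there, and without it the difference was 1.77. In midbrain 13 d the values were 7.11, 8.01 and 7.18 against 6.49, 6.46 and 6.21, or 1.05 ± 0.27, and 0.76 without replicate 2 at 3% O2. The smaller separations were 0.19 ± 0.27 in cortex 13 d (6.87, 6.82 and 6.93 against 6.57, 6.77 and 6.72) and 0.30 ± 0.27 in midbrain 48 h (7.46, 7.68 and 7.69 against 7.32, 7.18 and 7.43).

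The Slc1a pair parted from each other. Slc1a5, encoding ASCT2, gave 9.22, 9.58 and 9.15 at 3% O2 in midbrain 13 d against 8.29, 8.53 and 8.47 at 21% O2, or 0.89 ± 0.15 (1.85-fold). In cortex 48 h it gave 10.14, 9.36 and 9.37 against 8.82, 8.66 and 8.76, or 0.88 ± 0.15, and 0.62 without replicate 1 at 3% O2. Both pairs were separate, while midbrain 48 h (9.03, 8.91 and 8.74 against 8.81, 8.57 and 8.66) and cortex 13 d (9.18, 9.17 and 9.33 against 9.23, 9.04 and 9.14) overlapped.

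Slc1a4, encoding ASCT1, whose promoter held 1 core of the composite element, gave overlapping groups in those states. It was at 10.83, 11.00 and 10.90 in cortex 48 h at 3% O2 against 10.62, 11.19 and 11.05 at 21% O2, and at 11.00, 10.54 and 11.05 in midbrain 13 d against 10.88, 10.84 and 11.00. The estimates were -0.04 ± 0.12 in both, with 95% intervals of -0.29 to 0.21 and -0.29 to 0.20. They were -0.21 in cortex 48 h without replicate 1 at 21% O2 and 0.12 in midbrain 13 d without replicate 2 at 3% O2. Its groups were separate only in midbrain 48 h, at 10.85, 10.81 and 10.83 against 10.76, 10.74 and 10.67, and overlapped in cortex 13 d, at 10.65, 10.67 and 10.72 against 10.74, 10.58 and 10.59.

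**Figure D2:**
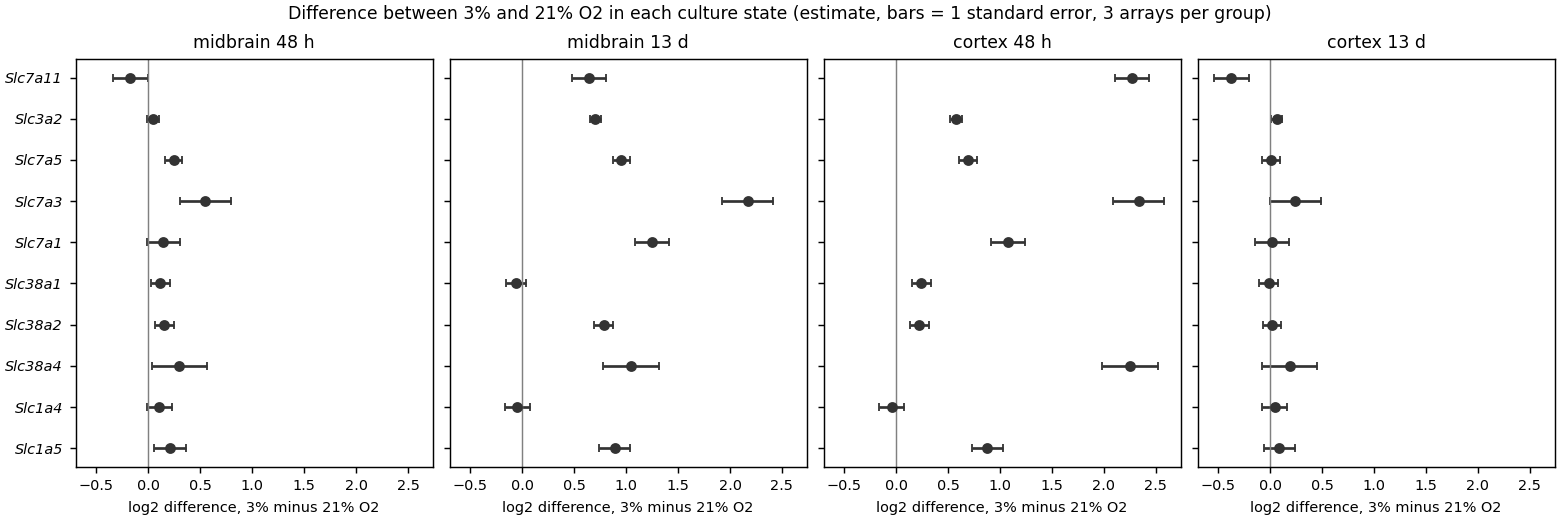
Log2 difference between 3% and 21% O2 for each gene in the 4 states, with bars of 1 standard error from the fit to all 24 arrays. Differences above 2 were those of Slc7a11, Slc7a3 and Slc38a4 in cortex 48 h and of Slc7a3 in midbrain 13 d, and all 10 values lay between -0.37 and 0.24 in cortex 13 d.

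Counted together, 8 of the 10 genes were past the threshold (limma, adjusted p under 0.05) and higher at 3% O2 in midbrain 13 d, where 23.9% of all probe sets passed in either direction and 11.2% were higher. In cortex 48 h 7 of 10 were higher, where 12.3% of probe sets passed and 6.25% were higher. In midbrain 48 h and cortex 13 d 0 of 10 passed, where 1.19% and 0.607% of probe sets did (0.701% and 0.543% higher). Groups that did not overlap and were higher at 3% O2 numbered 4 of 10 in midbrain 48 h, 8 in midbrain 13 d, 7 in cortex 48 h and 1 in cortex 13 d, beside 7.84%, 18.5%, 11.4% and 6.94% of all probe sets. In the lower direction there was 1 in midbrain 13 d (Slc38a1) and 1 in cortex 13 d (Slc7a11), beside 22% and 10.6%. The genes were chosen on these contrasts, so nothing is read from the counts. The count in cortex 48 h was 4 when only the 6 compared arrays were fitted, 9 with a replicate block, 9 without replicate 1 at 21% O2 and 8 without both number 1 arrays of that state. The count in midbrain 13 d was 7 when only its 6 arrays were fitted. The medians over the 10 genes were 0.15 in midbrain 48 h, 0.84 in midbrain 13 d, 0.79 in cortex 48 h and 0.03 in cortex 13 d, beside medians over all tested probe sets between -0.02 and 0.00.

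Responses set against each other gave the same picture as a description, and pairs of these differences share arrays. For Slc7a11 the response in midbrain minus that in cortex was -2.44 ± 0.23 at 48 h, and the cortex response at 13 d minus that at 48 h was -2.64 ± 0.23. For Slc7a3 the midbrain response was larger at 13 d than at 48 h by 1.62 ± 0.35. For Slc38a2 the response at 13 d was larger in midbrain than in cortex by 0.77 ± 0.13, while its cortex responses differed by -0.20 ± 0.13. Over the 10 genes the median difference was 0.70 between the midbrain times, -0.74 between the cortex times (13 d minus 48 h), -0.60 between regions at 48 h and 0.83 between regions at 13 d (midbrain minus cortex). The differences between regions pair states by labelled time, and compare different times if the cortex labels are exchanged.

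In 4 groups 1 array was the highest for most of these genes at once. In cortex 48 h, replicate 1 was the highest array of its group for 9 of 10 genes at 3% O2 and for 9 of 10 at 21% O2. In midbrain 13 d at 3% O2, replicate 2 was the highest for 8 of 10. In cortex 13 d at 21% O2, replicate 1 was the highest for 9 of 10, with a median deviation from the group mean of 0.09. Slc1a4 was at its lowest in both number 1 arrays of cortex 48 h and in that midbrain array, but at its highest in the cortex 13 d array. Its deviations from the group means correlated with those of the other 9 genes between -0.82 and -0.30 over 24 arrays (a description). The mean of 9 oligodendrocyte lineage markers was also low in the first 3 of these arrays, and was 8.53 against 8.53 and 8.46 in the cortex 13 d group. It was 10.06 against 10.79 and 10.77 in cortex 48 h at 3% O2, 10.36 against 11.16 and 11.13 at 21% O2, and 9.88 against 10.29 and 10.32 in midbrain 13 d at 3% O2. The astrocyte marker mean was 9.04 in replicate 1 of cortex 48 h at 21% O2, against 10.47 and 10.24. The part of cell makeup in the transporter values was not tested.

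**Figure D3:**
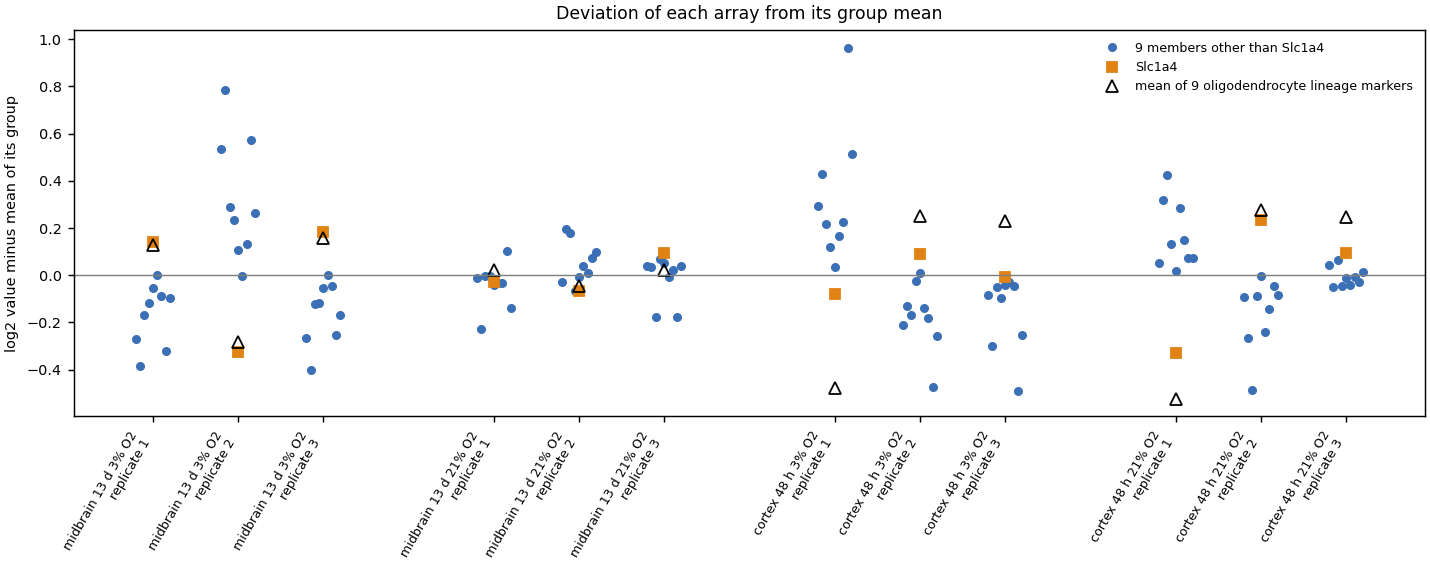
Log2 value minus the mean of its group for each array of midbrain 13 d and cortex 48 h, for 9 of the transporter genes (circles), Slc1a4 (squares) and the mean of 9 oligodendrocyte lineage markers (triangles). Replicate 2 of midbrain 13 d at 3% O2 and replicate 1 of both cortex 48 h groups show high circles with a low square and triangle.

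Some markers of other cell types also moved between oxygen levels in midbrain 13 d and cortex 48 h, where the transporters differed. In either direction 23.9% and 12.3% of all probe sets passed there, and counts near these shares are not read as a shift. Astrocyte markers had 0 of 8 past the threshold in midbrain 13 d and 1 lower in cortex 48 h. The neuron list had 1 higher and 2 lower in midbrain 13 d. Pericyte, fibroblast and meningeal markers had 0 of 12 past the threshold in cortex 48 h. By limma's adjusted p, 6 of 10 neuron markers were lower at 3% O2 in cortex 48 h, and 6 of 12 pericyte, fibroblast and meningeal markers were higher in midbrain 13 d, with a list mean of 7.67 to 8.02 against 7.14 to 7.20. The endothelial list had 3 of 10 higher and 0 lower in midbrain 13 d, with a mean of 7.23 to 7.37 against 6.66 to 6.76, and the progenitor list had 3 of 10 higher and 2 lower there. The calls of these lists in cortex 48 h were 1 higher for the endothelial and 1 higher and 2 lower for the progenitor markers. The oligodendrocyte lineage list had 3 of 9 lower and 1 higher in midbrain 13 d and 2 lower and 1 higher in cortex 48 h. Microglia and macrophage markers had 0 of 10 past the threshold in any state (1 higher and 5 lower in midbrain 48 h at an unadjusted p under 0.05, and 0 in the other states). Their part in the transporter results was not tested.

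Levels between states, averaged over both oxygen levels, were tested among the 3 states of run 2, since the error of such an average is independent of that of the oxygen contrasts that chose the genes. An average over cortex 48 h still carries the high 3% O2 values by which genes were chosen. Against that state, p-values are therefore given only for Slc38a1, Slc38a2 and Slc1a4, whose oxygen groups overlapped there, and the other 7 genes are described by their differences within each oxygen level. Slc38a1 was higher in midbrain 48 h than in cortex 48 h by 1.14 ± 0.06 (log2, SE, limma adjusted p = 2.73e-12, 2.20-fold), by 1.20 at 21% O2 and 1.08 at 3% O2. Its other probe set gave 1.57 ± 0.10. Slc38a2 was higher there by 0.96 ± 0.06 (adjusted p = 2.96e-11), by 1.00 and 0.93 at the respective oxygen levels. Among the 3 states of run 2, both glutamine carrier genes were highest in midbrain 48 h. That state also had the highest means of the neuron, the microglia and macrophage, and the pericyte, fibroblast and meningeal markers. The last of these rested on replicate 3, at 8.15 at 3% O2 and 8.19 at 21% O2, against 7.11 to 7.24 in its other arrays. The means of progenitor, astrocyte and oligodendrocyte lineage markers in midbrain 48 h were the lowest of these states. The part of any cell type in these levels was not tested. Against cortex 13 d, the same midbrain arrays were higher by 0.44 ± 0.06 for Slc38a1 (adjusted p = 7.13e-06) and by 0.70 ± 0.06 for Slc38a2 (adjusted p = 1.16e-08).

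Slc7a3 was higher in midbrain 48 h than in cortex 13 d by 1.72 ± 0.17 (limma adjusted p = 5.21e-08, 3.30-fold), by 1.57 at 21% O2 and 1.88 at 3% O2. Against cortex 48 h it was at 2.17 from the 21% O2 arrays and 0.38 from the 3% O2 arrays. Slc1a5 was lower in midbrain 48 h than in cortex 13 d by 0.40 (SE 0.11, adjusted p = 0.00394), and Slc7a1 by 0.35 (SE 0.11, adjusted p = 0.0147). Slc38a4 was higher by 0.68 ± 0.19 (adjusted p = 0.00466). Slc7a11 gave 0.00 ± 0.12 in this comparison, with a 95% interval of -0.24 to 0.25.

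Between the cortex times as labelled, Slc38a1 was higher at 13 d than at 48 h by 0.70 ± 0.06 (limma adjusted p = 1.48e-08). Slc38a2 was higher by 0.26 ± 0.06 (limma adjusted p = 0.00175). Its difference was 0.36 at 21% O2 (adjusted p = 0.00292) and 0.16 at 3% O2, where it did not pass (adjusted p = 0.172). Slc1a4 was lower at 13 d, at -0.28 ± 0.08 (limma adjusted p = 0.00966). It was at -0.32 at 21% O2 (adjusted p = 0.0414) and at -0.23 at 3% O2, where it did not pass (adjusted p = 0.13). Slc7a11 and Slc38a4 were at -2.48 and -1.99 from the 3% O2 arrays (13 d minus 48 h) but at 0.16 and 0.07 from the 21% O2 arrays. Slc7a5, Slc3a2 and Slc7a3 were likewise at -0.58, -0.56 and -1.49 at 3% O2, against 0.10, -0.05 and 0.60 at 21% O2. The cationic carrier gene Slc7a1 and the ASCT2 gene Slc1a5 were at 0.68 and 0.39 at 21% O2 and at -0.38 and -0.40 at 3% O2. The estimates had opposite signs at the 2 oxygen levels for 6 of these 7 genes. From the 21% O2 arrays, the differences of Slc7a11, Slc38a4, Slc7a5, Slc3a2 and Slc7a3 did not pass the threshold. The 3% O2 values of cortex 48 h are among those that chose the genes, so no turn of sign is read from them.

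Midbrain 48 h against cortex 13 d, states in which 0 of 10 genes passed between oxygen levels, gave 8 of 10 past the threshold (5 higher, 3 lower), beside 51.1% of all probe sets (24.1% higher, 27% lower). From the 21% O2 arrays alone 6 passed, and from the 3% O2 arrays alone 4. The smallest of the 8, Slc3a2 (0.10 ± 0.04, adjusted p = 0.0447), had an adjusted p of 0.0523 with the replicate block and lost its call without any 1 of 8 arrays (0.08 to 0.10). Averages against cortex 48 h passed for 8 genes between the cortex times (2 higher, 6 lower) and for 7 between regions at 48 h (3 higher, 4 lower), beside 50.3% (20.7% higher, 29.6% lower) and 66.4% (27.2% higher, 39.2% lower) of probe sets. Since the averages carry values that chose the genes, nothing is read from these counts, and from the 21% O2 arrays alone 5 genes passed in each. Slc3a2 and Slc7a11 were at -0.47 and -2.38 in midbrain 48 h minus cortex 48 h at 3% O2, but at 0.05 and 0.07 at 21% O2.

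**Figure D4:**
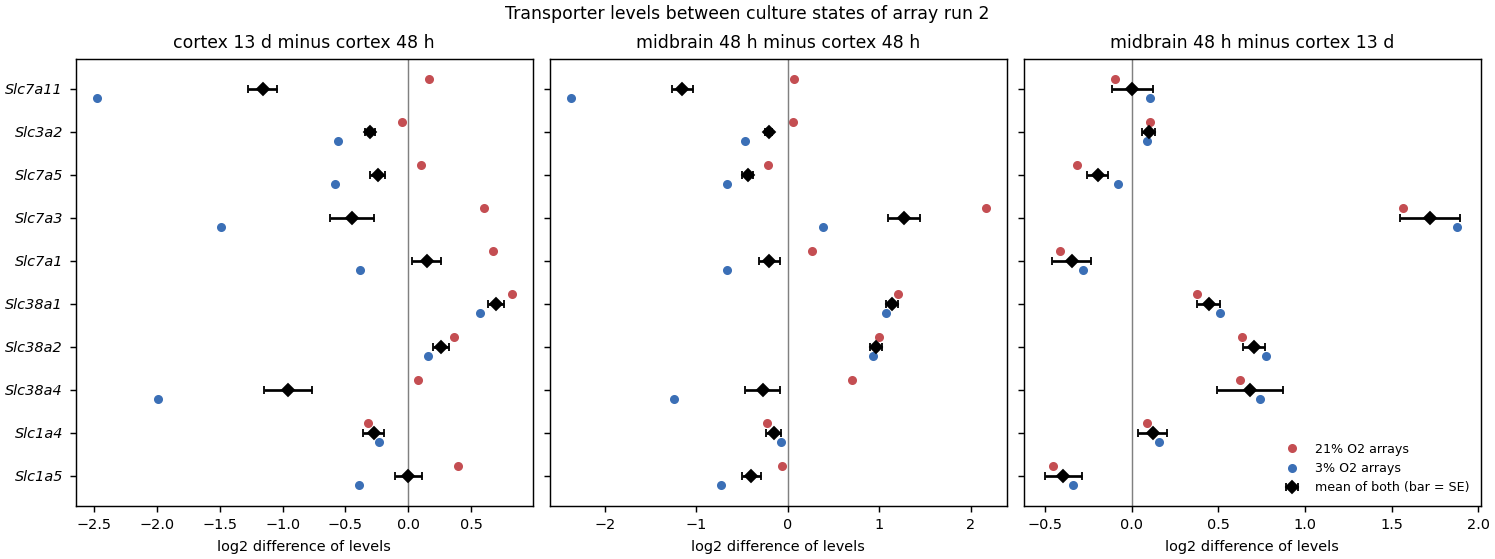
Log2 difference of transporter levels between pairs of states, from the 21% O2 arrays (red), the 3% O2 arrays (blue) and their mean (black, bar of 1 standard error). The 3 values lie together for Slc38a1 and Slc38a2 and far apart for Slc7a11 and Slc38a4 against cortex 48 h.

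Genes outside the 10 transporters were counted from lists of known targets and enzymes, with limma's adjusted p over all probe sets. The lists were chosen with earlier results of these data known, so the counts are not independent support for the transporter values. Each count is to be set beside the share of all probe sets that passed in either direction, 23.9% in midbrain 13 d, 12.3% in cortex 48 h, 1.19% in midbrain 48 h and 0.607% in cortex 13 d. Of 18 ATF4 regulators and stress targets, 13 rose and 1 fell at 3% O2 in midbrain 13 d and 9 rose in cortex 48 h (4 when only the 6 arrays of that state were fitted), against 0 in midbrain 48 h (3 higher and 4 lower at an unadjusted p under 0.05) and 2 that rose in cortex 13 d. Eif4ebp1, encoding a repressor of translation initiation, rose by 1.19 ± 0.09 in midbrain 13 d and 0.91 ± 0.09 in cortex 48 h. Chac1, encoding an enzyme that degrades glutathione, rose by 1.28 ± 0.16 in cortex 48 h, and Eif2ak1, a kinase upstream of ATF4, fell by 0.50 (SE 0.06) in midbrain 13 d. The pair past the threshold in cortex 13 d was Ddit4, an inhibitor of mTORC1 that is also a hypoxia target, at 1.23 ± 0.18, and Vldlr, a lipoprotein receptor, at 0.75 ± 0.17, whose call was lost without any 1 of the 6 arrays of that state. Atf4 itself, named after its values were seen, rose by 0.47 ± 0.08 in midbrain 13 d and 0.48 ± 0.08 in cortex 48 h, a call lost in cortex 48 h with the arrays of that state alone. It was at -0.26 ± 0.08 and 0.09 ± 0.08 in midbrain 48 h and cortex 13 d, where it did not pass. The list medians were 0.41 in midbrain 13 d, 0.26 in cortex 48 h, -0.11 in midbrain 48 h and 0.02 in cortex 13 d.

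Of 18 cytosolic aminoacyl-tRNA synthetases, which load amino acids onto tRNAs, 12 rose and 0 fell in midbrain 13 d and again in cortex 48 h (2 with the arrays of that state alone), with 0 past the threshold in the other states (2 higher in midbrain 48 h and 0 in cortex 13 d at an unadjusted p under 0.05). Mars1, the methionine enzyme, rose by 0.87 ± 0.09 in midbrain 13 d, and Cars, the cysteine enzyme, by 0.72 ± 0.10 in cortex 48 h. Of 16 amino acid synthesis enzymes, 7 rose and 2 fell in midbrain 13 d and 7 rose and 1 fell in cortex 48 h, against 0 in midbrain 48 h (1 higher and 1 lower unadjusted). Those that fell were Gpt2, an alanine aminotransferase gene, and Psat1, of serine synthesis, in the first state (by 0.35 and 0.27) and Cbs, of cysteine synthesis from homocysteine, in the second (by 0.63), all named after their values were seen. The call of Psat1 was lost without any 1 of 4 arrays and that of Cbs without any 1 of 3. Bcat1, the cytosolic branched-chain aminotransferase, rose by 1.16 ± 0.07 and 0.72 ± 0.07, and Shmt2, the mitochondrial serine hydroxymethyltransferase, by 0.89 ± 0.08 and 0.75 ± 0.08. Shmt2 was also the gene of this list that rose in cortex 13 d, by 0.55 ± 0.08. Of 14 glutathione and NRF2 genes, 6 rose and 1 fell in midbrain 13 d and 5 rose in cortex 48 h (1 with the arrays of that state alone), with 0 past the threshold in midbrain 48 h (1 higher and 1 lower unadjusted) and in cortex 13 d (0 unadjusted). The gene that fell was Nqo1, a quinone reductase gene named in the same way, by 0.81 (SE 0.20). Gclc, the catalytic subunit of the first enzyme of glutathione synthesis, which uses the cysteine that xCT supplies, rose by 1.16 ± 0.11 and 0.93 ± 0.11, the second call being lost with the arrays of cortex 48 h alone.

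Members of the other amino acid transporter list, 40 genes, passed at about the share of all probe sets in midbrain 13 d, 10 of 40 beside 23.9%, and at 3 of 40 beside 12.3% in cortex 48 h. In midbrain 13 d 6 rose and 4 fell, in cortex 48 h 1 rose and 2 fell, in midbrain 48 h 1 rose and in cortex 13 d 0 passed (0 also unadjusted), with list medians between -0.01 and 0.03. Slc6a6, the taurine transporter, rose by 0.74 ± 0.08 in midbrain 13 d, and Slc7a10, a carrier of small neutral amino acids that also pairs with CD98, rose by 0.66 ± 0.08 in cortex 48 h. Slc43a2, a carrier of large neutral amino acids, fell there by 0.61 (SE 0.14), as did Slc36a1, a lysosomal carrier, by 0.24 (SE 0.08). The gene that rose in midbrain 48 h was Slc1a6, a glutamate transporter, by 0.29 ± 0.07. The calls of Slc36a1 and Slc1a6 were each lost without any 1 of 5 arrays.

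The hypoxia reference list holds genes raised by hypoxia and also Hif1a and Epas1, which encode HIF alpha subunits regulated mainly as proteins. Of its 16 genes, 10 rose in midbrain 48 h, 13 in midbrain 13 d, 6 in cortex 48 h and 12 in cortex 13 d, with 1 that fell, Hif1a, in midbrain 13 d (by 0.39, SE 0.06). Slc16a3, a lactate exporter, rose by 4.32 ± 0.30 in cortex 13 d, and Ldha, lactate dehydrogenase, rose by 1.15 ± 0.10 in midbrain 48 h. With the arrays of a state alone, 1 gene of this list was past the threshold and higher in cortex 48 h and 0 in midbrain 48 h.

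**Figure D5:**
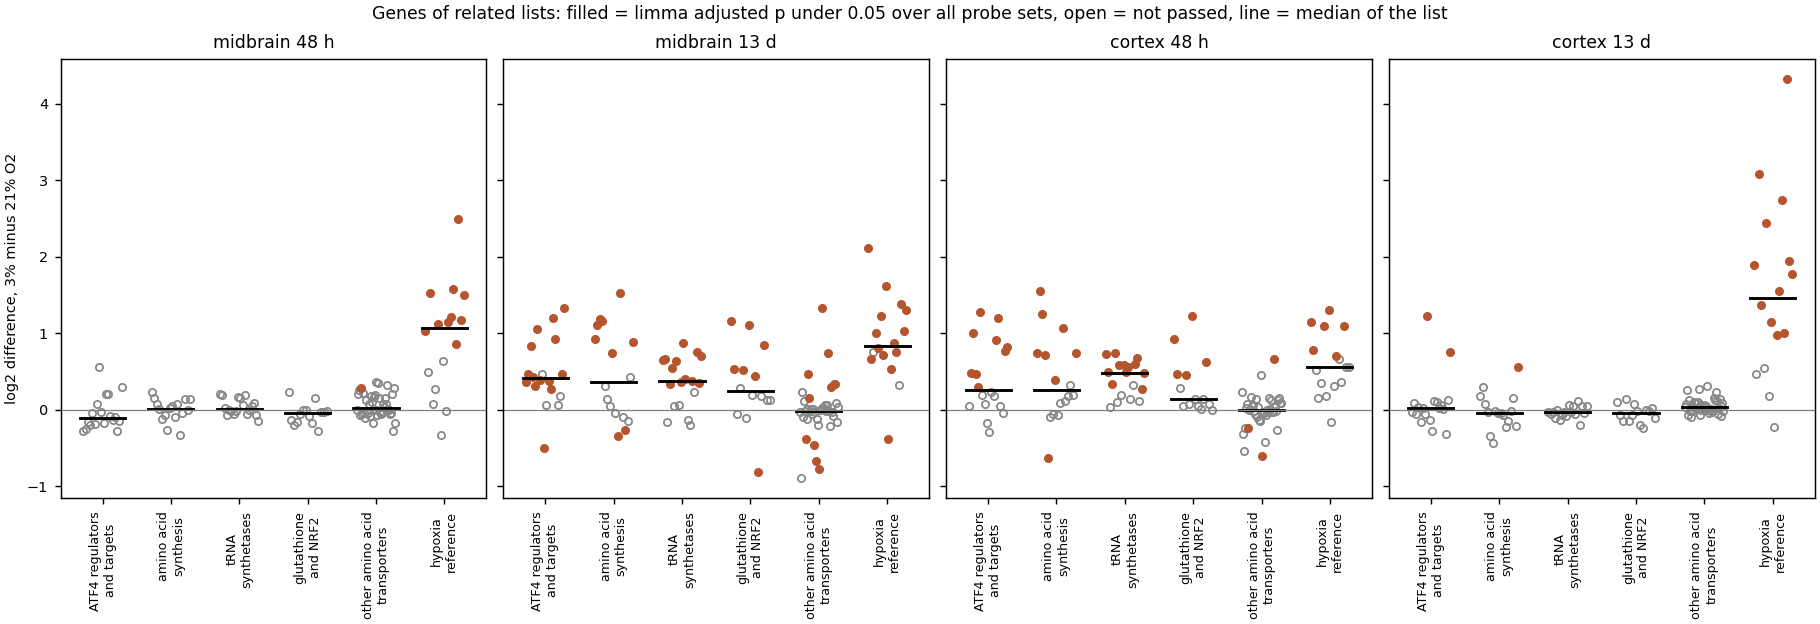
Log2 difference between 3% and 21% O2 for each gene of 6 lists in the 4 states, with filled points for limma adjusted p under 0.05 and a line at the list median. The ATF4, synthesis, synthetase and glutathione lists have filled points mostly in midbrain 13 d and cortex 48 h, and the hypoxia list in every state.

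As a description, the genes whose profiles over the 24 arrays were most like each transporter were searched among 18601 genes. Slc7a3 was followed by Cry1 (Pearson r = 0.94), a clock repressor gene, and Sars (0.94), the serine tRNA synthetase. Slc7a1 was followed by Mthfd2 (0.97), a mitochondrial folate enzyme, and Slc7a5 by Slc35c2 (0.96) and Gclc (0.94). Slc7a11 was closest to Clic5 (0.93), Cyb5r2 (0.91) and Pir (0.91). Slc1a4 was closest to Fa2h (0.85), Pdzrn3 (0.85) and Ugt8a (0.84), of which Fa2h and Ugt8a encode enzymes of myelin lipid synthesis. Slc38a2 was closest to Dip2c (0.98) and Slc38a1 to Slco3a1 (0.98). These arrays share the large differences between states, which raise all such correlations.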

How the data were processed

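Total RNA was labelled as biotinylated cDNA and hybridised to whole-transcript mouse gene arrays, per the labels' protocols. The authors deposited log2 values, described as normalized in the labels. How they were normalized is not stated in any source used here, so a change is relative to the bulk of genes on an array. Values spanned 4.65 to 14.49 and array medians 7.35 to 7.42. The 23410 probe sets with a symbol were tested (5446 are unnamed here, and 1621 with several symbols name no gene). Limma 3.58.1 in R 4.3.3 fitted 8 group means to 24 arrays with 16 residual degrees of freedom, with eBayes and two-sided tests, Benjamini-Hochberg adjustment within a comparison and a threshold of 0.05. For list genes, rose and fell mean past this threshold. The 10 members and all lists were chosen with earlier results of these data known. Each list in each state names up to 3 genes of smallest p, some left out for space, and each transporter its most correlated genes. Promoters are from RefSeq (GRCm38.p6).

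Deviations from group means were correlated between equal replicate numbers of the 2 oxygen levels. The correlations in midbrain were 0.121, 0.217 and 0.243 at 48 h, and 0.123, 0.421 and 0.306 at 13 d. In cortex they were 0.285, 0.417 and -0.044 at 48 h and -0.014, 0.229 and -0.367 at 13 d. Unequal numbers were not compared, so whether the numbers pair arrays is not known from these values or the labels. The main fit holds no pairing, and a replicate block was fitted as an alternative. On simulated arrays with 200 changed probe sets the fit recovered 86% of changes of 0.5 and 96% of 1 for the cortex 48 h oxygen comparison, with 16 false calls. Alternatives were other probe set filters, quantile normalization, median centring, a variance trend, compared arrays only, a replicate block, 1 oxygen level only and leaving out each array. Leaving out both number 1 arrays of cortex 48 h was added after the data were seen.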

Additional observations from a re-analysis of the deposited data

Results flagged for a closer look

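Slc7a11 moved in opposite directions between oxygen levels in different states. All 3% O2 arrays lay above all 21% O2 arrays in midbrain 13 d (0.65) and cortex 48 h (2.27), and all lay below them in cortex 13 d (-0.37, log2 difference). This difference between states was not tested, because the gene was chosen on these responses.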

How the results depend on the processing

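Leaving out 1 array gave medians over the 10 genes of 0.13 to 0.20 in midbrain 48 h, 0.74 to 0.89 in midbrain 13 d, 0.63 to 0.87 in cortex 48 h and 0.01 to 0.09 in cortex 13 d. The median differences of responses ranged over 0.56 to 0.77 (midbrain times), -0.82 to -0.58 (cortex times), -0.67 to -0.46 (regions at 48 h) and 0.68 to 0.93 (regions at 13 d). The counts of genes past the level threshold were 7 to 8 in each comparison. From the 21% O2 arrays alone 5 genes passed between the cortex times, and from the 3% O2 arrays alone 4 passed between midbrain 48 h and cortex 13 d, with fewer arrays behind each value. Averages that changed sign in the 21% O2 arrays, where none of them passed, were those of 4 genes between the cortex times. These were Slc7a11 (0.16), Slc7a3 (0.60), Slc7a5 (0.10) and Slc38a4 (0.075). Likewise Slc7a11 (0.066) and Slc3a2 (0.053) changed sign without passing between midbrain 48 h and cortex 48 h. Slc3a2 was at 0.0055 in the last comparison after quantile normalization, and the cause was not tested. Slc1a4 between midbrain 48 h and cortex 48 h gained a call (-0.24) without replicate 1 of cortex 48 h at 21% O2, and likewise (-0.26) without both number 1 arrays of that state. Slc7a5 between midbrain 48 h and cortex 13 d (-0.06) lost its call after quantile normalization. The arrays without which Slc3a2 lost its call between midbrain 48 h and cortex 13 d were replicates 1 and 2 of midbrain 48 h at 3% O2, 2 and 3 of it at 21% O2, 1 and 3 of cortex 13 d at 3% O2 and 2 and 3 of it at 21% O2. For Psat1 they were replicates 1 and 3 of midbrain 13 d at 3% O2 and 2 and 3 at 21% O2, and for Cbs replicate 1 of cortex 48 h at 3% O2 and 2 and 3 at 21% O2. Fitting the compared arrays alone also ended the calls of Atf4, Gclc, Cbs, Slc36a1 and Slc43a2 in cortex 48 h and of Ldha and Slc1a6 in midbrain 48 h. The replicate block changed 1 level call, that of Slc3a2, left the oxygen calls of named list genes in place except Vldlr in cortex 13 d, and raised the other transporters that rose in cortex 48 h from 1 to 3.

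Probe sets called numbered 4 in midbrain 48 h, 311 in cortex 48 h and 348 in cortex 13 d when only the compared arrays were fitted, against 279, 2886 and 142. Without 1 array they fell to 141 in midbrain 48 h, 1725 in cortex 48 h and 68 in cortex 13 d. In midbrain 48 h they were 156 among brighter probe sets and 422 after quantile normalization, and 10021 of 15553 were left between midbrain 48 h and cortex 48 h among brighter ones. Without replicate 1 of cortex 48 h at 21% O2, 7 other transporters fell there, against 2. How far a probe set stood above background is not known from these values.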
